A study of Mus musculus with 4 samples.

Results

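The 10 genes described here code for cytokines, receptors, a kinase, a transcription factor and feedback inhibitors of interleukin 6 (IL-6) family signaling: *Il6*, *Lif*, *Il6ra*, *Il6st*, *Lifr*, *Osmr*, *Jak1*, *Stat3*, *Socs1* and *Socs3*. They were taken by symbol from the 32285 genes of the count tables, and all 10 were detected. The list was chosen with earlier results of these data known. Single cell RNA-sequencing was performed on tdTomato+ cells sorted from the hindlimb muscles of 3-4 months old C57BL/6J mice, 14 days after 5 daily injections of tamoxifen. α-cdKO mice were homozygous for floxed Ctnna1 (fl/fl) and for floxed Ctnna3 (fl/fl) and carried Pax7 CreERT2/+ and Rosa26-tdTomato, so that tamoxifen deletes αE- and αT-catenin, which link cadherins to the actin cytoskeleton. Control mice were Pax7 CreERT2/+;Rosa26-tdTomato with no floxed allele, and carried the same Cre and reporter and received the same drug. Each genotype had 2 samples, and each sample was a pool of 2 littermates.

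Cre was driven by *Pax7*, so recombination and the tdTomato label start in muscle stem cells (MuSCs) and pass to their progeny. Loss of α-catenin need not be complete in every cell. *Ctnna1*, the gene of αE-catenin, was at 91.0 and 74.8 unique molecular identifiers (UMIs) per 1000000 (CPM) in myogenic cells of the controls, and at 79.3 and 75.6 CPM in the α-cdKO samples. These are 3′ counts and the deleted exons were not given in the sources used here, so the counts do not check the labels. *Ctnna3* was at most at 0.0958 CPM in any sample. A barcode was retained from 1000 UMIs and 400 genes upward if its mitochondrial share was below 15%, leaving 5354 to 9786 cells in a sample. Median depth per sample was 6452.5 to 8075 UMIs, and each pair of libraries shared 9 to 26 cell barcodes.

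IL-6 family cytokines bind a private receptor chain and then recruit gp130, the shared signaling chain that *Il6st* encodes. IL-6 uses IL-6Rα, LIF uses the LIF receptor, and oncostatin M uses the oncostatin M receptor or the LIF receptor. Receptor-bound Janus kinases such as JAK1 then phosphorylate STAT3, which enters the nucleus and switches on target genes, among them *Socs3*, whose product binds gp130 and JAKs and shuts the signal off. SOCS1 is a related inhibitor, best known for restraining interferon signals. In muscle, LIF and IL-6 are known as factors to which MuSCs and myoblasts respond, and damaged fibers and many cell types make them.

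On GRCm38 (GENCODE M21 annotation), *Il6* lies on chromosome 5 at 30013114-30019981 on the plus strand and *Lif* on chromosome 11 at 4257557-4272514, also on the plus strand. *Socs3* lies on the minus strand of chromosome 11 at 117966079-117970047. Promoters of all 10 genes were matched in RefSeq (GRCm38.p6, 250 bases before to 50 bases after each start site) and searched on both strands for 5 short motifs, and no 2 matches overlapped. Windows are shown for the cytokines, which were made by few cells, and for *Socs3*, the 1 member that was lower in activated-like cells. The capitals mark the matches. In *Il6* they are, from 5′ to 3′, TGANTCA of AP-1, TTGNGCAA of C/EBP and the NF-κB motif.
*Il6*, chr5:30012864-30013113, plus strand: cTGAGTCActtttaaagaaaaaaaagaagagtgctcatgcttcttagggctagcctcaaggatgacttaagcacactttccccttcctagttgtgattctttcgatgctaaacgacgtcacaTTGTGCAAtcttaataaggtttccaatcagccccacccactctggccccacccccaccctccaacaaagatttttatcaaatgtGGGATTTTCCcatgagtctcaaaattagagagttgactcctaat
*Lif*, chr11:4257329-4257358, plus strand, AP-1 letters: ccagtcagctgTGACTCAggccatagtggc
*Socs3*, chr11:117969501-117969530, minus strand, STAT letters TTCNNNGAA: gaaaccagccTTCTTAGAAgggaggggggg

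Of 32851 promoters of this length, TTCNNNGAA was present in 8.30%, TGANTCA in 7.81%, TTGNGCAA in 2.94% and the NF-κB motif in 0.411%. *Osmr* also held TGANTCA, just after its start site. The STAT motif with a spacer of 4 bases between TTC and GAA, present in 6.95% of promoters, was in none of these windows, and the other 6 members held none of the 5 motifs. The *Socs3* match, which starts 154 bases before the RefSeq start site, lies within the span of the GENCODE gene and outside its exons. A match describes letters only, and no match says nothing about a factor.

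Cells were grouped by clustering on genes other than these members and their pathway. Of 28790 kept cells, 27117 were myogenic, and these comprised 5720 quiescent-like cells (led by *Fos*, *Hspa1a* and *Jun*, with *Pax7* at 171 CPM), 19375 activated-like cells, 651 cycling-like cells (*Mki67*, *Top2a*) and 1371 differentiated-like cells, the *Myog*-positive group, with *Myog* at 1098 CPM. Activated-like cells fell into a cluster of 12432 cells led by the chemokines *Cxcl3* and *Cxcl2* and another of 6943 cells led by chaperone genes. The 1349 mature-muscle-like cells, 178 endothelial-like, 94 immune-like and 52 glial-like cells are given separately. Genes known to respond to cell isolation differed between these states. *Fos* averaged 3110 CPM in quiescent-like cells, against 63.6 in the chemokine-led and 372 in the chaperone-led activated cluster, and *Hspa1a* averaged 16334, 83.2 and 3372 CPM. *Cxcl2* went the other way, at 130, 1161 and 540 CPM. *Jun* averaged 2699 CPM in quiescent-like and 213 CPM in activated-like cells, and *Hspa1b* 15465 and 1825 CPM. *Ccl2* differed little, at 96.3 and 91.9 CPM. The part of isolation in the member levels below was not tested.

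Between quiescent-like and activated-like cells of the same sample, *Lif*, *Osmr*, *Il6st*, *Jak1* and *Stat3* were higher in activated-like cells and *Socs3* was lower. A gene was counted as higher where the mean log2 ratio of CPM + 1 was at least 1 and positive in all 4 samples, and as lower in the mirror case, among genes with at least 5 CPM over both states. Of the 10 members, 9 reached 5 CPM, 5 were higher (*Lif*, *Osmr*, *Stat3*, *Jak1* and *Il6st*) and 1 was lower (*Socs3*). Over all 7867 genes that reached 5 CPM, 9.62% were higher and 9.72% lower. With TMM-scaled CPM, which moved the median of all genes from -0.03 to 0.34, 20.4% of genes were higher and 3.90% lower, and the same 6 members were counted. The median ratio was 1.11 over the 9 members and -0.03 over all genes. Because the states are clusters of the same cells, these ratios are descriptions and carry no p-value.

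**Figure D1:**
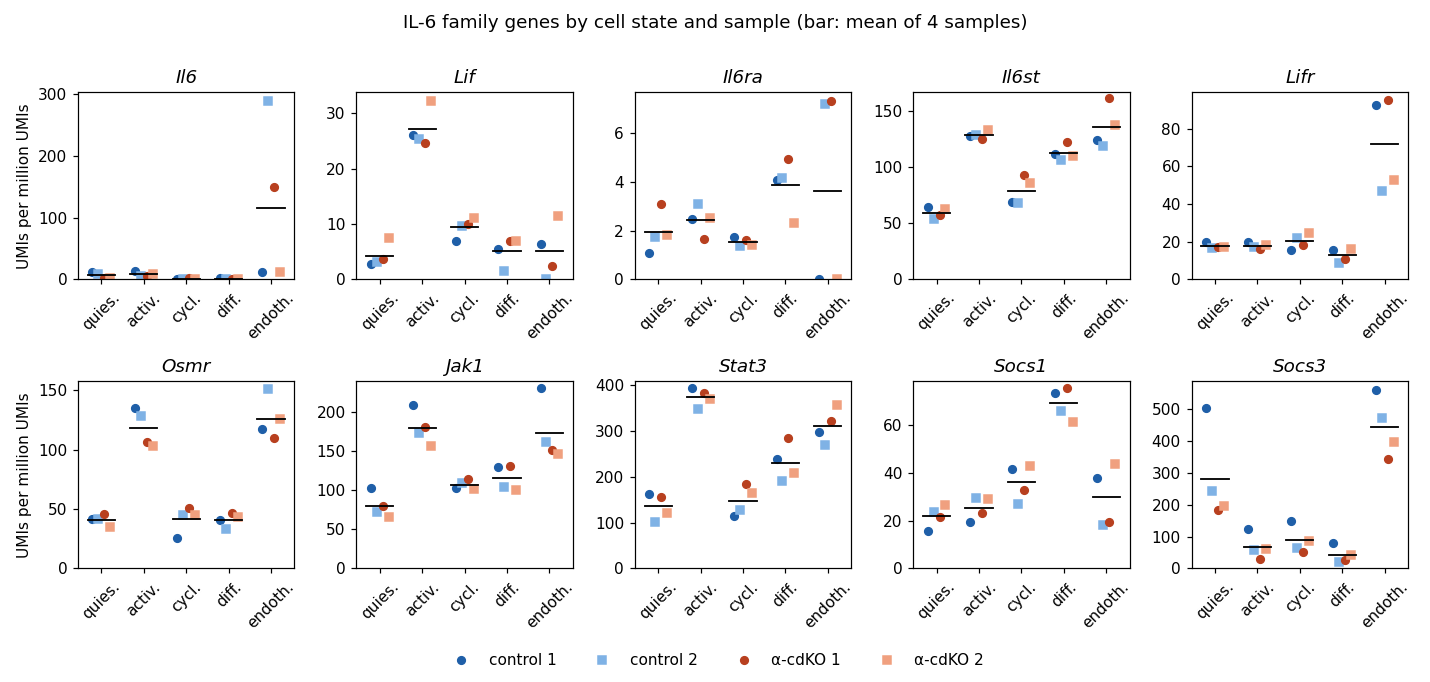
Level of each member in UMIs per 1000000 UMIs (CPM) (y axis, linear, starting at 0 and scaled for each gene) in quiescent-like, activated-like, cycling-like, differentiated-like and endothelial-like cells. Points are the 4 samples and bars their mean. *Lif*, *Osmr* and *Stat3* are highest among the myogenic states in activated-like cells, *Socs1* in differentiated-like cells and *Socs3* in quiescent-like cells.

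**Figure D2:**
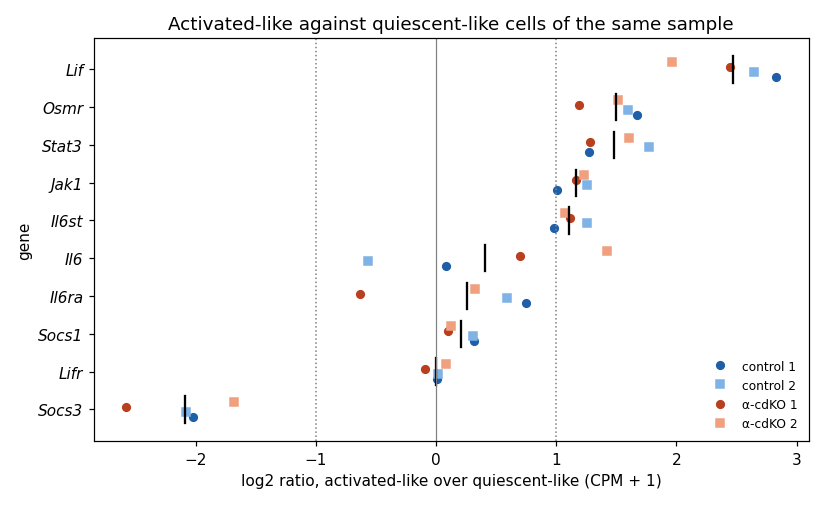
Log2 ratio of activated-like over quiescent-like cells of the same sample (x axis, CPM + 1) for the 10 members (y axis). Points are samples, black bars the mean and dotted lines a ratio of 2-fold either way. The 4 points of *Lif*, *Osmr*, *Stat3*, *Jak1* and *Il6st* lie to the right of 0 and those of *Socs3* to the left of -1.

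Of the ligands, *Lif* was near the lower end of detection in quiescent-like cells, at 2.8 and 3.2 CPM in controls and 3.7 and 7.5 CPM in α-cdKO samples. In activated-like cells it was at 26.1 and 25.4 CPM in controls and 24.6 and 32.2 CPM in α-cdKO samples. The ranges of the 2 states did not overlap, and the log2 ratio averaged 2.47 ± 0.37 (SD, n = 4 samples). *Lif* reached 5 CPM only through activated-like cells, so the size of the ratio depends on the pseudocount, and with 5 CPM added it was 1.81 ± 0.18. Activated-like cells held 92.0% of the *Lif* UMIs of all myogenic cells, although they held 70.9% of all myogenic UMIs. Within activated-like cells, *Lif* averaged 31.9 CPM in the chemokine-led cluster and 19.4 CPM in the chaperone-led cluster, where α-cdKO replicate 2, at 31.1 CPM, was above the other 3 samples at 14.4 to 17.7 CPM. Cycling-like cells followed at 6.9 to 11.2 CPM and differentiated-like cells at 1.5 to 7.0 CPM. Differentiated-like and quiescent-like cells overlapped.

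Over all myogenic cells *Il6* was rarer than *Lif* and far less even. In quiescent-like cells it was above *Lif* in both controls and below *Lif* in both α-cdKO samples. Its level was 12.3 and 9.3 CPM in quiescent-like cells of controls and 2.7 and 2.5 CPM in those of α-cdKO samples, and 13.2, 6.0, 5.0 and 8.4 CPM in activated-like cells of the same samples. The states overlapped and the log2 ratio, 0.41 ± 0.85, was positive in 3 of 4 samples. It was 1.202 ± 0.78 without integration, 1.25 ± 0.72 with second seeds and 1.11 ± 0.85 with the members kept in clustering, positive in 4 of 4 samples and counted as higher in each. Cycling-like cells held 15 *Il6* UMIs in all and differentiated-like cells 11, against 1324 in activated-like cells. A UMI of *Il6* was found in 563 of 27117 myogenic cells (2.08%), and the richest 1% of cells held 81.5% of its UMIs, up to 38 in one cell. For *Lif* that share was 49.2%, and for the evenly spread *Stat3* it was 6.89%.

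Among the myogenic clusters, 83 cells had at least 5 *Il6* UMIs, a limit chosen after the values were seen. They held 51.5% of the myogenic *Il6* UMIs. Samples contributed 32 and 10 cells in controls and 12 and 29 in α-cdKO samples, and 73 of the cells were activated-like. *Pax7*, the MuSC transcription factor, had a UMI in 54.2% of them and *Myod1* in 65.1%, against 34.3% and 44.4% of myogenic cells without *Il6*. *Pdgfra* of fibro-adipogenic cells, *Ptprc* of leukocytes and *Cdh5* of endothelium had no UMI in any of the 83 cells. They had one in only 0.0716%, 0.0151% and 0.0339% of cells without *Il6*, so their absence from 83 cells says little. *Dcn*, a matrix gene of fibroblasts, had a UMI in 7.23% of the 83 cells, against 6.76% of cells without *Il6*. *Pecam1* of endothelium had one in 3.61% of the 83 cells, against 3.28%. At least 5 UMIs of the 4 fibro-adipogenic markers, mostly *Col3a1*, were found in 39.8% of them and in 32.5% of cells without *Il6*. Their median depth was 9047 UMIs, against 7422 in cells without *Il6*. Genes were ranked by their ratio with 10 CPM added to both sides. The chemokines *Cxcl5* (75.7 against 12.8 CPM), *Ccl7* (165 against 38.1 CPM) and *Ccl11* (50.1 against 7.57 CPM) stood highest. *Serpina3n* (61.9 against 11.9 CPM) and *Gja1* (87.5 against 24.8 CPM), which are not chemokines, came next. The cells without *Il6* were of all myogenic states, so neither state nor depth was matched.

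The 264 myogenic cells with at least 5 *Lif* UMIs held 48.6% of the gene's UMIs, and 256 of them were activated-like. Chemokines led here too, *Cxcl2* at 2240 against 620 CPM and *Cxcl1* at 5490 against 1700 CPM, beside *Tnfaip3*, an inhibitor of NF-κB signaling, at 87.0 against 29.8 CPM. The second value is that of all myogenic cells without *Lif*, with state and depth not matched. In the chemokine-led cluster as a whole, *Cxcl2* averaged 1161 CPM. The *Lif*-rich cells had a median depth of 9758.5 UMIs, against 7354.5 UMIs in cells without *Lif*. *Pax7* was found in 34.8% of these cells and in 34.6% of cells without *Lif*. After each cell was thinned to 2000 UMIs, *Lif* had a UMI in 14.6% of 137 *Il6*-positive cells of the chemokine-led cluster, and in 3.92% of its other cells. That is 20 cells where 5.51 would carry both if the genes were independent within each sample. Outside that cluster such cells were too few to describe, with 3 in the chaperone-led cluster and 0 in quiescent-like cells. *Il6* was found together with *Socs3* in 16 quiescent-like cells (10.2 if independent within samples), 22 chaperone-led cells (11.6) and 12 chemokine-led cells (9.58), and *Lif* together with *Socs3* in 10 (9.76), 21 (22.7) and 29 (32.9). These counts are small and carry no test.

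Thinning every cell to 2000 UMIs separates level from depth in these shares, which cover counting error only. *Lif* then had a UMI in 3.47% of 19215 activated-like cells (Clopper-Pearson 95% interval 3.22-3.74) and in 0.699% of 5580 quiescent-like cells (0.497-0.954). Unthinned, the shares were 8.41% and 2.06%, at median depths of 7473 and 6260.5 UMIs. Mature-muscle-like cells, taken as a comparison for free RNA in droplets, had *Lif* in 0.431% of 928 cells (0.118-1.10) at a median depth of 3061 UMIs. Control replicate 2 gave 551 of the 928 cells. It also held 45 of the 55 *Lif* UMIs of this group, in 0.36% of its unthinned cells. For *Lif* the group is thus no clean measure of free RNA. The quiescent-like share and the differentiated-like share of 0.889% (0.460-1.55) could not be told from that of this group. *Il6* was found in 1.09% of activated-like cells (0.951-1.25), 0.556% of quiescent-like cells (0.378-0.788), 0.158% of cycling-like cells (0.00401-0.878) and 0.148% of differentiated-like cells (0.0179-0.534). Mature-muscle-like cells had it in 0.108% (0.00273-0.599), and with samples pooled only activated-like cells of the myogenic states exceeded that interval. By sample, the quiescent-like share was 1.54% (0.881-2.48) in control replicate 1, above that interval, and 0.633% (0.255-1.3) in control replicate 2. It was 0.236% and 0.23% in α-cdKO replicates 1 and 2. Unthinned, *Il6* was in 2.42% of activated-like and 1.42% of quiescent-like cells.

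**Figure D3:**
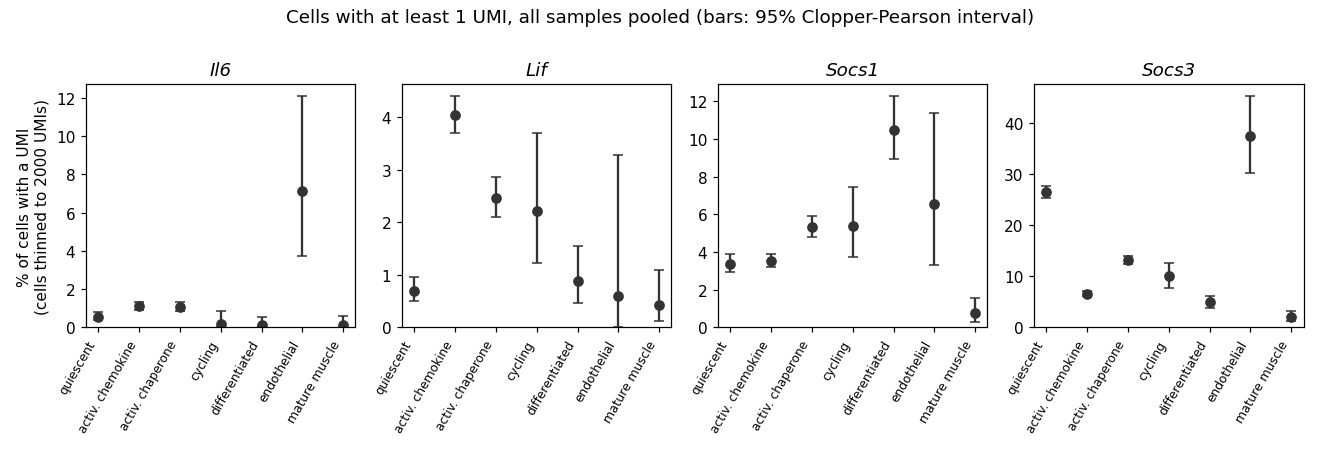
Share of cells with at least 1 UMI of *Il6*, *Lif*, *Socs1* or *Socs3* (y axis, percent, linear and scaled for each gene) after thinning to 2000 UMIs, by cell group (x axis), all samples pooled, with 95% Clopper-Pearson intervals. *Lif* peaks in the chemokine-led activated cluster at 4.04%, *Socs1* in differentiated-like cells at 10.5% and, of the groups plotted, *Socs3* in endothelial-like cells at 37.5%, beside quiescent-like cells at 26.4%. Glial-like cells (42, *Socs3* in 40.5%) are not plotted.

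The receptor chains differed in their order over the states. *Osmr*, the oncostatin M receptor, was at 41.8 and 41.5 CPM in quiescent-like cells of controls and at 45.9 and 35.2 CPM in those of α-cdKO samples. In activated-like cells it was at 135 and 128 CPM in controls and at 106 and 103 CPM in α-cdKO samples. The states were far apart, with a log2 ratio of 1.495 ± 0.21, and the 2 activated clusters were alike, at 119 and 118 CPM. Cycling-like (25.8 to 51.2 CPM) and differentiated-like cells (33.5 to 46.3 CPM) overlapped the quiescent-like range. *Il6st*, which all these ligands need, was at 53.3 to 64.1 CPM in quiescent-like cells and 125 to 133 CPM in activated-like cells, a log2 ratio of 1.11 ± 0.11. It stayed at 106 to 123 CPM in differentiated-like cells, above the cycling-like range of 68.0 to 93.0 CPM.

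*Lifr* showed no such step. Its log2 ratio was 0.00 ± 0.07, with 16.8 to 19.8 CPM in quiescent-like and 16.0 to 20.0 CPM in activated-like cells, and 15.5 to 24.7 CPM in cycling-like cells. Differentiated-like cells were at 8.7 to 16.1 CPM. *Lifr* had a UMI in 3.40% of thinned activated-like and 3.53% of quiescent-like cells, intervals that overlapped (3.15-3.67 and 3.06-4.05). *Il6ra*, the chain that gives a cell its own answer to IL-6, was the least detected member, with 551 UMIs in all myogenic cells. It was at 1.1 to 3.1 CPM in quiescent-like, 1.6 to 3.1 CPM in activated-like and 2.3 to 5.0 CPM in differentiated-like cells, and did not reach the minimum of 5 CPM. Its thinned shares, 0.427% in activated-like and 0.287% in quiescent-like cells, lay within the mature-muscle-like interval of 0.0261% to 0.776%.

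Both signal transducers were higher in activated-like cells. *Stat3* was at 162 and 101 CPM in quiescent-like cells of controls and at 157 and 122 CPM in those of α-cdKO samples, against 394, 348, 384 and 371 CPM in activated-like cells (log2 ratio 1.49 ± 0.25). A UMI was found in 49.6% of thinned activated-like and 19.2% of quiescent-like cells. Differentiated-like cells lay between, at 192 to 285 CPM, while cycling-like cells, at 115 to 185 CPM, overlapped the quiescent-like range. *Jak1* was at 65.9 to 103 CPM in quiescent-like and 156 to 209 CPM in activated-like cells (log2 ratio 1.17 ± 0.11), with cycling-like and differentiated-like cells overlapping each other at 101 to 114 CPM and 99.8 to 132 CPM. One cycling-like cell of the 30 in control replicate 1 held at least 5 UMIs of the neutrophil gene *S100a9*, and without it *Stat3* there was 118 instead of 115 CPM.

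Of the inhibitors, *Socs3* was the member with the reverse order. In quiescent-like cells it was at 505 and 243 CPM in controls and at 184 and 196 CPM in α-cdKO samples. In activated-like cells it was at 123 and 56.8 CPM in controls and at 30.01 and 60.6 CPM in α-cdKO samples. Every quiescent-like value was above every activated-like value, with a log2 ratio of -2.09 ± 0.37. Quiescent-like cells held 45.9% of the myogenic *Socs3* UMIs and 16.8% of all myogenic UMIs. The chaperone-led cluster, at 106 CPM on average, lay between them and the chemokine-led cluster at 42.2 CPM, the same order as that of *Fos* and *Hspa1a* above. Taken alone against quiescent-like cells, either activated cluster gave the same 5 members as higher and *Socs3* as lower. *Socs3* had a UMI in 26.4% of thinned quiescent-like cells (25.2-27.6) and 8.93% of activated-like cells (8.53-9.34), and in 2.05% of mature-muscle-like cells (1.24-3.18). Cycling-like cells, at 52.8 to 150 CPM, and differentiated-like cells, at 20.9 to 79.3 CPM, overlapped the activated-like range.

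*Socs1* peaked elsewhere, in the *Myog*-positive cells. Differentiated-like cells had 73.4 and 65.8 CPM in controls and 75.2 and 61.3 CPM in α-cdKO samples, above all 12 values of the other myogenic states, of which the highest was 42.8 CPM in cycling-like cells. These cells held 18.8% of the myogenic *Socs1* UMIs and 7.75% of all myogenic UMIs. Quiescent-like and activated-like cells overlapped, at 15.4 to 26.4 and 19.4 to 29.4 CPM. The log2 ratio between them was 0.21 ± 0.11, positive in 4 of 4 samples but under the limit of 1. Thinned, 10.5% of differentiated-like cells had a UMI (8.93-12.3), against 4.18% of activated-like (3.91-4.48) and 3.39% of quiescent-like cells (2.93-3.90).

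Genes with a pattern like that of a member were sought over 20 points, the 4 samples in each of 5 myogenic clusters, among 4423 genes with a mean of at least 20 CPM. The points share libraries and depth, so the correlations are descriptions. *Socs3* was most like *Pax7* (Pearson's r = 0.951), *Fosb* (0.933), an immediate-early gene, and *Mpst* (0.904). *Lif* was most like *Fndc4* (0.939), *Plaur* (0.938), the urokinase receptor, and *St3gal1* (0.926). *Osmr* was closest to *Prkx* (0.968), *Nup98* (0.966) and *Camk2d* (0.958). Genes like *Il6* included *4932438A13Rik* (0.924) and *Gpx3* (0.910).

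The other genes of the pathway, a list of 33 ligands, receptors, kinases, STATs and inhibitors, were read in the same way. Of the 33, 21 reached 5 CPM, 3 were higher in activated-like cells and 1 was lower (9.62% and 9.72% over all genes), with a median log2 ratio of 0.18 over the 21. *Clcf1*, a gp130 cytokine that signals through the CNTF receptor, was at 57.8 to 96.98 CPM in quiescent-like and 215 to 305 CPM in activated-like cells (log2 ratio 1.64 ± 0.20). The phosphatase genes *Ptpn2* (1.51 ± 0.21) and *Ptpn1* (1.01 ± 0.25) were higher. Oncostatin M itself was nearly undetected, with *Osm* at a mean of 0.025 CPM in quiescent-like cells and 0 in activated-like cells.

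Of 16 textbook targets of STAT3, which other pathways also drive, 15 reached 5 CPM, 3 were higher in activated-like cells and 2 were lower, beside 9.62% and 9.72% over all genes (median log2 ratio 0.42). *Timp1*, an inhibitor of matrix proteases, averaged 5.64 CPM in quiescent-like and 38.8 CPM in activated-like cells (2.63 ± 0.36). *Myc* (1.42 ± 0.20) and *Hif1a* (1.29 ± 0.15) were higher too. *Ccnd1*, which encodes cyclin D1, averaged 187 CPM in quiescent-like and 58.5 CPM in activated-like cells (-1.67 ± 0.19), and *Junb*, an AP-1 gene, 3469 and 1694 CPM (-1.03 ± 0.08). The list thus held genes on both sides.

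Among the cells set aside, endothelial-like cells had *Lifr* at 92.5 and 46.8 CPM in controls and at 95.1 and 52.7 CPM in α-cdKO samples, above every value in the myogenic states. *Socs3* was at 344 to 561 CPM in them. *Il6* there was uneven, with 6, 80, 61 and 5 UMIs in the 4 samples, and had a UMI in 7.14% of 168 thinned cells (3.75-12.1). Endothelium was marked by *Cdh5* at 458 to 616 CPM. The immune-like cluster mixed neutrophil genes (*S100a9*) with fibroblast genes, *Dcn* averaging 6796 CPM, and 47 of its 49 *Il6* UMIs (95.9%) lay in cells with at least 5 UMIs of the fibro-adipogenic markers, which held 62.0% of all its UMIs. The same cells held 39.7% of *Il6* UMIs and 49.6% of all UMIs in quiescent-like cells, 33.8% and 38.1% in activated-like cells, and 52.0% and 72.2% in endothelial-like cells. Glial-like cells held 1 *Il6* UMI and *Socs3* at 349 to 1107 CPM. With 11 to 57 cells per sample in these classes, genotypes were not compared in them.

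Between genotypes, tests were made with edgeR on UMIs summed per sample, over all genes, with Benjamini-Hochberg adjustment and 2 samples per group. In all myogenic cells 0.164% of 14632 genes passed an adjusted p of 0.05, and 0 of the 10 members did. DESeq2 called 0 members as well, and 2 members had an unadjusted p under 0.05 by edgeR, as 1031 of the 14632 genes had, *Socs3* (log2 fold change, α-cdKO over control, -1.02 ± 0.36 SE, adjusted p = 0.67) and *Osmr* (-0.34 ± 0.12, adjusted p = 0.675). *Socs3* was at 183 and 94.1 CPM in controls and at 53.6 and 83.6 CPM in α-cdKO samples. Control replicate 1 stood apart, and without it the log2 fold change was -0.44. *Osmr* was at 115 and 101 CPM in controls and 85.9 and 85.1 CPM in α-cdKO samples. The other members lay between -0.82 ± 0.40 for *Il6* and 0.23 ± 0.18 for *Socs1*. These sums mix states whose shares differed between samples. Differentiated-like cells were 147 and 167 of 5283 and 4459 myogenic cells in controls, and 703 and 354 of 9396 and 7979 in α-cdKO samples. Cycling-like cells were 30 and 84 in controls and 411 and 126 in α-cdKO samples. The part of these shares in the fold changes over all myogenic cells was not tested.

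**Figure D4:**
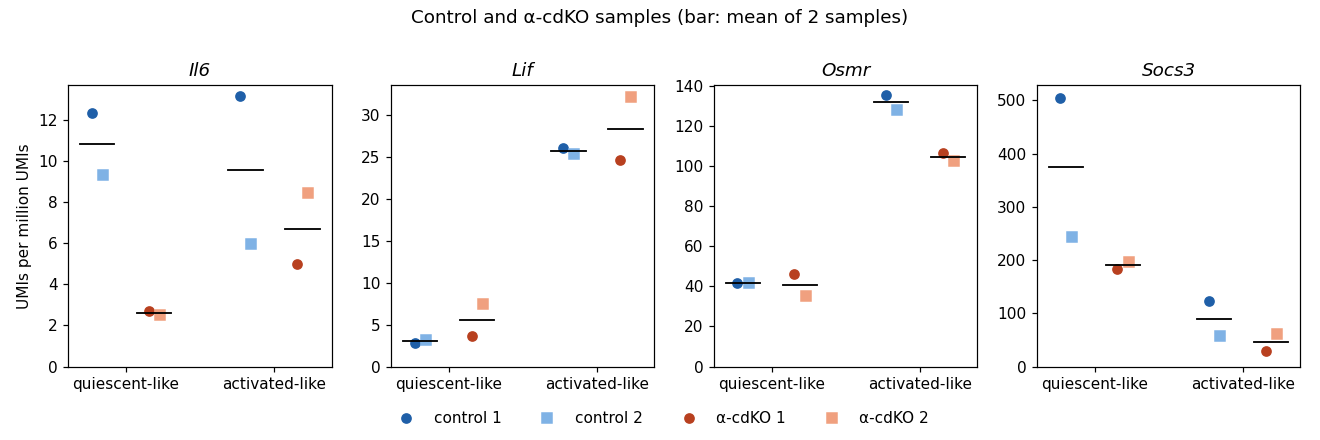
Levels of *Il6*, *Lif*, *Osmr* and *Socs3* in UMIs per 1000000 UMIs (CPM) (y axis, linear from 0, scaled for each gene) in quiescent-like and activated-like cells, by genotype. Points are samples and bars the mean of the 2 samples of a genotype. Points of the genotypes separate for *Il6*, *Lif* and *Socs3* in quiescent-like cells and *Osmr* in activated-like cells. Of these only *Il6* passed the genotype test, and it overlapped under 3 other clusterings. How many of all genes separate in this way was not counted, so separation of 2 samples from 2 is not read as a difference. *Socs3* is highest in control replicate 1 in both states.

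In quiescent-like cells 0.167% of 11957 genes passed (0.0753% as lower in α-cdKO), and *Il6* was the only one of the 10 members to pass. It fell by 2.01 ± 0.24 (SE) on the log2 scale in α-cdKO samples, with an edgeR adjusted p of 0.022. The counts behind this were 92 and 81 UMIs in controls and 27 and 32 in α-cdKO samples, lower in 2 of 2 α-cdKO samples. They came from 31 of 1067 and 16 of 1125 control cells and from 12 of 1756 and 22 of 1772 α-cdKO cells. A single cell of control replicate 2 held 38 of its 81 UMIs. Without the richest cell of each sample, an alternative chosen after the data were seen, the log2 fold change was -1.83 with an adjusted p of 0.142.

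The *Il6* call also rested on which cells were counted as quiescent-like. With clusters made without integration, with a second set of seeds and with the members kept among the clustering genes, control replicate 2 was at 1.10, 1.05 and 1.06 CPM, below α-cdKO replicate 2 at 2.42, 2.55 and 2.32 CPM. The log2 fold changes were then -1.47, -1.25 and -1.56, with adjusted p of 0.729, 0.733 and 0.667, so the call was lost. Over 14 alternatives in all the adjusted p ran from 1.247e-10 to 0.733. Markers of fibro-adipogenic cells (4 genes, mostly *Col3a1*) summed to 747 and 803 CPM in the controls and 685 and 1230 CPM in the α-cdKO samples of this state. *Pdgfra* was at most at 0.268 CPM there, and *Ptprc* was at 0. Immune markers (7 genes) summed to 3.62 and 4.04 CPM in the controls and to 0.599 and 1.97 CPM in the α-cdKO samples, lower in both as *Il6* was, and their part in the result was not tested. Cells with at least 5 UMIs of the fibro-adipogenic markers held 36 of 92 and 23 of 81 *Il6* UMIs in controls and 14 of 27 and 19 of 32 in α-cdKO samples. Endothelial markers (6 genes) summed to 22.7 and 11.9 CPM in controls and to 19.4 and 11.5 CPM in α-cdKO samples, with *Cdh5* at 0 in 3 samples and 0.0788 CPM in the other.

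*Socs3* in quiescent-like cells was lower in both α-cdKO samples (-0.93 ± 0.26, adjusted p = 0.365), and was -0.36 without control replicate 1 (adjusted p = 0.543) and -1.34 without control replicate 2 (adjusted p = 0.00127). Over 14 alternatives the adjusted p ran from 6.592e-07, without the low-count filter, to 0.9997. The share of thinned cells with a *Socs3* UMI was 41.4% and 26.1% in controls and 20.9% and 22.9% in α-cdKO samples. *Lif* was 0.93 ± 0.38 higher with an adjusted p of 0.548. In activated-like cells 0.330% of 13343 genes passed and 0 of 10 members did, by edgeR and by DESeq2. *Socs3* (-0.95 ± 0.37, adjusted p = 0.639) and *Osmr* (-0.30 ± 0.13, adjusted p = 0.681) were the 2 members with an unadjusted p under 0.05. The *Socs3* values overlapped between genotypes in this state, and the log2 fold change was -0.32 without control replicate 1 and -0.54 without α-cdKO replicate 1, against -1.53 without α-cdKO replicate 2. *Il6st*, *Stat3* and *Lifr* differed by at most 0.12 on the log2 scale between genotypes in any of the 3 comparisons, with SEs of 0.12 to 0.204. The largest was that of *Stat3* in quiescent-like cells (0.12 ± 0.20), which ran from -0.15 to 0.46 over the 14 alternatives. Small differences are therefore not excluded.

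The genotype effect in activated-like cells was also set against that in quiescent-like cells. With a term for this difference 0% of 13689 genes passed in edgeR, 586 had an unadjusted p under 0.05, and DESeq2 called 1 gene. The effect on *Il6* was 1.61 ± 0.33 higher in activated-like than in quiescent-like cells, with an adjusted p of 0.68. It passed without control replicate 1 (2.05, adjusted p = 1.436e-06) and without control replicate 2 (1.28, adjusted p = 0.00773), but in neither fit without an α-cdKO sample. With clusters made without integration, with second seeds and with members kept it was 0.69, 0.48 and 0.71, and over 12 alternatives the adjusted p ran from 1.436e-06 to 1. Of the 33 pathway genes and 16 STAT3 targets, 0 passed in any of the 3 genotype comparisons or in this one. DESeq2 called 0 of them too. Other alternatives made calls. Without the low-count filter 3 targets passed in quiescent-like and 1 in activated-like cells. Without control replicate 2, 1 pathway gene passed in activated-like cells, and 1 passed in the difference of effects without either control replicate. With the crossed replicate block 2 targets passed in all myogenic cells. An unadjusted p under 0.05 in edgeR was reached by *Cntfr*, *Ptpn11*, *Ptpn2* and *Clcf1* of the pathway in all myogenic and in activated-like cells, and by *Cntfr* and *Clcf1* in quiescent-like cells. Of the targets it was reached by *Cebpd* in all 3, and by *Ccnd1*, *Bcl6*, *Pim1* and *Timp1* in quiescent-like cells. Over all genes 1031 of 14632, 1000 of 11957 and 974 of 13343 reached it in all myogenic, quiescent-like and activated-like cells. The largest of these target differences was that of *Timp1*, at 3.8 and 3.8 CPM in controls and 8.0 and 7.0 CPM in α-cdKO samples (log2 fold change 1.01 ± 0.23, adjusted p = 0.213).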

How the data were processed

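Libraries (10x 3′ v3) from 2 pools of each genotype were analyzed. The authors made the deposited values with Cell Ranger 7.1.0 (per the file headers) on GRCm38 (mm10). The values are UMI counts, whole numbers per gene and barcode, with no normalization, and Seurat 4.0.3 is named in the submitters' processing notes. Sample totals were 46099310 to 74921651 UMIs. The reads were not analyzed here, and counting could split reads among near-identical genes.

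Kept cells were clustered in Seurat 5.3.0 (Louvain, resolution 0.2) after Harmony, re-implemented from its description for want of a package and checked on a simulated batch shift. Clusters were named from marker lists where at least 3 markers were raised at least 1.5-fold. The chaperone-led cluster was named against quiescent-like cells only. Members and pathway genes were left out of the clustering genes. UMIs were summed per sample and state and tested in edgeR 4.0.16 (filterByExpr, TMM, quasi-likelihood, adjusted p under 0.05), checked on simulated data, with DESeq2 1.42.0 as an alternative. CPM is UMIs per 1000000 UMIs of the state in a sample. Scrublet (scanpy 1.11.5) called 0 to 5 doublets per sample and so did not work as a caller. Doublets were kept, and removal of the 229 to 766 highest scores per sample was an alternative.

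Members and lists were chosen with earlier results of these data known. All 10 members are named. From the pathway and target lists the genes counted as higher or lower, up to 5 each way, and those past a genotype test were to be named, with 3 most alike genes for *Il6*, *Lif*, *Osmr* and *Socs3* and 6 isolation response genes. *Osm*, *Timp1* in the genotype test, and the genes of *Il6*-rich and *Lif*-rich cells were added after their values were seen. Some genes that the rule would name are not reported here. Same-numbered samples did not deviate together (r = -0.178 in all myogenic cells, 0.008 in quiescent-like and -0.167 in activated-like cells), so replicate numbers were not taken as pairs.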

Additional observations from a re-analysis of the deposited data

How the results depend on the processing

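The 5 higher members and *Socs3* as lower were counted under all 15 alternatives to the state comparison. Leaving out the filter on low values and lowering the limit to 1.5-fold reuse the same ratios, so no call could be lost there. The comparisons with a single activated cluster were added after the data were seen. *Il6* was a sixth higher member with clusters without integration, second seeds, or members kept in clustering. Of the 21 pathway genes that reached 5 CPM, 4 were counted, 7 with TMM-scaled CPM, 2 with a pseudocount of 5 CPM and 8 at 1.5-fold. Over all genes the main setting counted 757 as higher and 765 as lower of 7867. TMM-scaled CPM gave 1598 and 305 of 7829. A pseudocount of 5 CPM gave 542 and 344, and 1.5-fold gave 1734 and 1817, of 7867. The numbers of genes called between genotypes varied widely. In all myogenic cells 24 genes were called, 117 with DESeq2, 13 without the low-count filter and 5 to 48 when 1 sample was left out (8 and 5 without control replicates 1 and 2, 48 without α-cdKO replicate 2). In quiescent-like cells 20 were called, 38 with DESeq2, 309 without the filter, 49 to 193 when 1 sample was left out (62 and 193 without control replicates 1 and 2, 57 and 49 without α-cdKO replicates 1 and 2), and 7, 7 and 9 with clusters without integration, second seeds and members kept. In activated-like cells 44 were called, 103 with DESeq2, 350 without the filter and 23 to 116 when 1 sample was left out (116 without control replicate 2, 23 and 24 without α-cdKO replicates 1 and 2). For the difference of effects 0 were called, 1 with DESeq2, 39 without the filter, 1 without likely doublets, 2 without integration and 0 to 178 when 1 sample was left out (104 and 178 without control replicates 1 and 2), and *Socs3* turned from -0.08 to 0.34 without α-cdKO replicate 1 (-0.5413 without α-cdKO replicate 2). The cause was not tested.

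With a replicate block 16, 38 and 65 genes were called in all myogenic, quiescent-like and activated-like cells, and no member's call changed. With the block crossed between genotypes, chosen after seeing the data, the counts were 168, 133 and 105, with 1, 2 and 1 members. Without the low-count filter *Socs3* also passed in quiescent-like and activated-like cells (adjusted p 6.592e-07 and 4.372e-06), and *Il6* passed in the difference of effects (1.60, adjusted p 1.258e-04). A sample left alone in its group was assumed to vary like the other group. Class labels changed for 6.54% to 9.38% of cells between clusterings. With 1582 *Il6* UMIs over 27117 cells, a few cells decided its values.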
